A study of Homo sapiens and Mus musculus with 21 samples.

Results

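Translational efficiency, the level of ribosome-protected fragments of a gene relative to its RNA, was compared between wild-type (WT) HEK293T cells and cells of the same line without PCIF1. The members are the genes counted in both the input RNA table and the ribosome-protected fragment table: 785 of the 58381 genes of the input table, and all 785 of the fragment table. The deposited efficiency table names 765 of them and gives each a class for the first base of its transcript. These are 416 m6Am genes, 201 A, 52 C, 50 G and 46 T genes, and 20 genes have no name or class. HEK293T is a transformed human embryonic kidney line. Each kind of library was made from 2 WT and 3 PCIF1 knockout (KO) samples, named here by genotype and replicate number, so that 10 of the 21 libraries of the series enter the comparison. The labels name no treatment for these samples. They do not say how many clones the knockouts came from or whether replicates were separate cultures, so every p-value reflects only how far these libraries vary, and that variation may be technical.

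PCIF1 binds the phosphorylated tail of RNA polymerase II and methylates the N6 position of an adenosine next to the 5′ cap. With the 2′-O-methyl group already on the ribose of that adenosine, the product is m6Am, found on mRNAs whose first transcribed base is A. The cap is where the factor eIF4E and then the small ribosomal subunit are recruited, so a change at the first base is placed at the entry of the translation pathway. Ribosome profiling sequences the stretches of mRNA that ribosomes shield from nuclease.

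The start windows of some leading genes show what the classes refer to. Windows of 29 bases are printed 5′ to 3′ on the transcript strand, from RefSeq GRCh38.p14, with the start base in capitals. The first 6 are m6Am genes chosen because their RefSeq start lies within 1 base of the centre of the authors' window and is A:
PYGL (chr14:50944469-50944497, minus strand): gcggggcggactccAcccctgcccggcag
SNRNP200 (chr2:96305532-96305560, minus strand): tcttttccttccccAgtgcgtctttcctg
PEBP1 (chr12:118136110-118136138, plus strand): cgtcttcccgagccAgtgtgctgagctct
WLS (chr1:68232509-68232537, minus strand): gcggcggagcggccAcaatcacagctccg
ELAC2 (chr17:13018013-13018041, minus strand): tggctggatccgccAtgcggagcggctag
VBP1 (chrX:155216410-155216438, plus strand): agtgcgaacaagccAatcacggaatcccg
Not all leading m6Am genes have such a start. The base at the RefSeq start is C for ATF4 and G for CKS2 and TNPO1, at starts 2, 4 and 12 bases from the authors' centre:
ATF4 (chr22:39520548-39520576, plus strand): gcggccacggcagcCatttctactttgcc
CKS2 (chr9:89311181-89311209, plus strand): ttgggactgcggtcGttagtctccggcga
TNPO1 (chr5:72816647-72816675, plus strand): cccagattctctttGttccgcagccattt
For the letter classes the base at the authors' own start is capital. CDK1 is in class A, UPF1 in class C, MIDN in class G and XPO5 in class T:
CDK1 (chr10:60778317-60778345, plus strand): cctgctttttctctAgccgccctttcctc
UPF1 (chr19:18831921-18831949, plus strand): ggctcgcgcacgcgCacggcgacggcggc
MIDN (chr19:1248539-1248567, plus strand): gggaaggcggcgcgGataaaggctgaggg
XPO5 (chr6:43576061-43576089, minus strand): acacgggagccgccActtccgcgggcgcg
XPO5 carries the letter T, but the base at the authors' start is A on its own strand. The RefSeq starts of UPF1, MIDN and XPO5 lie 24, 30 and 37 bases from the authors' centre. The base there is A, A and G. Where the deposited window was 161 bases long and the sequence could be read, the letter was the base of the transcript in 71 of 71 plus-strand genes and its complement in 66 of 66 minus-strand genes. In these readable windows the letters of minus-strand genes were thus those of the plus strand. The other windows, among them the 160-base windows of 160 of the 201 A genes, 82 of these on the minus strand, were not read in this way. RefSeq promoter windows matched 642 of the named genes. With a RefSeq start within 50 bases of the authors' centre, the first base was A in 160 of 294 m6Am genes (54.4%). It was A in 35 of 128 A genes (27.3%), 4 of 29 C genes (13.8%), 4 of 30 G genes (13.3%) and 10 of 21 T genes (47.6%). At all 35116 RefSeq starts the share was 44.4%. All 416 m6Am genes had a region of the authors' strict m6Am list within 200 bases, as did 8 of the 349 genes of the other classes.

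The input libraries held 4511687 to 5960674 counts, of which 19.95 to 20.73% fell on the 785 genes. Fragment totals over the listed genes ranged from 17665 (WT replicate 1) to 124580 (KO replicate 1). Every listed gene had at least 10 counts in both WT fragment libraries, whereas the lowest KO count was 3. In WT fragment replicate 1, the shallowest library, 116 genes had exactly 10 counts and 265 (33.8%) had at most 12. Log2 levels correlated at 0.644 between the WT fragment libraries, at 0.828 to 0.913 between KO fragment libraries and at 0.975 to 0.993 between input replicates. A single gene, DICER1, the nuclease that matures microRNAs, took 10.2% of KO fragment replicate 2. Of 8 markers listed for HEK293T, 3 are named in the files and IRS4 and VIM were in both tables. No marker of fibroblasts, blood or endothelium was named. Only symbols given in the deposited data could be looked up, so a marker without a name says nothing of its level. PCIF1 is not among the named genes, and its own level was not analysed here.

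No gene passed an adjusted p of 0.05 for a change of translational efficiency with edgeR's quasi-likelihood test of the interaction of genotype and library kind (0 of 785, 0.0%, smallest adjusted p 0.483). Before adjustment, 53 genes (6.75%) had p under 0.05: 31 were higher in KO (3.95%) and 22 lower (2.8%). DESeq2 on the same counts called 2 genes, ATF4 lower and VIM higher, and limma voom with quality weights called 0. Neither side of the ratio gave a call with edgeR. Fragments alone had 0 genes called (0.0%), as with DESeq2, and before adjustment 16 higher (2.04%) and 14 lower (1.78%). Input RNA alone also had 0 called with either tool, and before adjustment 9 higher (1.15%) and 33 lower (4.2%). The median standard error was 0.33 on the log2 scale. The 95% interval lay within 1 log2 unit either side of 0 for 419 genes (53.4%) and within 2 units for 735 (93.6%). The model shares 1 spread between both kinds of library, with a common dispersion of 0.0304, while fragments alone gave 0.0793 and input alone 0.0103.

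**Figure D1:**
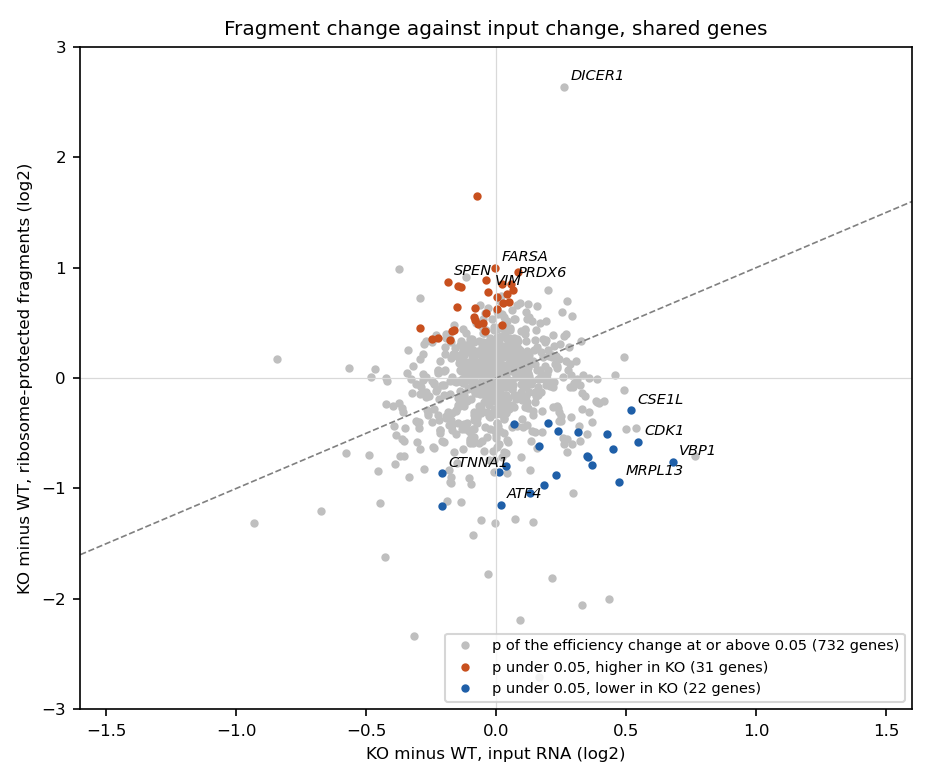
Each point is 1 of the 785 genes, with the KO minus WT log2 change of input RNA on the x axis and of ribosome-protected fragments on the y axis; genes on the dashed line have no efficiency change. Before adjustment, 31 genes lie above the line and 22 below it with p under 0.05, and none passed the adjusted threshold with edgeR.

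ATF4, the transcription factor of the integrated stress response, whose own translation is held back by upstream reading frames in unstressed cells, had the smallest p. Its fragment level, in CPM (TMM-scaled counts relative to the library's total over the shared genes), was 546 in WT replicate 1 and 940 in replicate 2, against 413, 344 and 288 in the KO libraries, from 10, 57, 52, 14 and 17 counts. Its input level was 1674 and 1749 CPM in WT and 1679, 1753 and 1777 in KO. All KO fragment libraries lay below both WT libraries, and the input levels of the genotypes overlapped. The 10 counts in WT replicate 1 equal the lowest count of any listed gene in the WT fragment libraries. The efficiency change was -1.21 log2 (SE 0.29, 95% interval -1.82 to -0.59, edgeR adjusted p = 0.483), a level 2.31-fold higher in WT. DESeq2 gave -1.24 and an adjusted p of 0.0225. The deposited table lists -1.24 and 0.0225 for ATF4, the authors' values, which are not a second measurement. Without WT fragment replicate 2, ATF4 stood at -0.61.

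VIM encodes vimentin, the intermediate filament protein of mesenchymal cells. Its fragment level was 2182 and 2557 CPM in WT and 3658, 4296 and 4346 in KO, and its input level was 1693 to 1819 CPM in WT and 1669 to 1766 in KO. The KO fragment libraries all lay above WT. The efficiency change of VIM was 0.78 log2 (SE 0.20, interval 0.35 to 1.21, edgeR adjusted p = 0.483), 1.72-fold, and DESeq2 gave 0.73 with an adjusted p of 0.0452, as did the authors' deposited table. Over the alternative settings, VIM ran from 0.67 to 0.93. PRDX6, a peroxiredoxin that also has phospholipase activity, had fragment levels of 982 and 858 CPM in WT and 1746, 1448 and 1708 in KO, with input at 1381 to 1599 CPM in all 5 libraries. Its change was 0.83 (SE 0.23, edgeR adjusted p = 0.483), and the groups did not overlap. ATF4, VIM and PRDX6 are all in the m6Am class, and in all 3 the input differed by at most 0.06 log2 between genotypes.

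The other genes of smallest p and higher efficiency in KO had roles in RNA handling, metabolism and membranes. SPEN, a nuclear repressor that works with the long noncoding RNA Xist, had 546 and 330 CPM of fragments in WT and 714, 835 and 676 in KO, with a change of 1.10 (SE 0.31, edgeR adjusted p = 0.483). SNRNP200, the helicase that unwinds the U4 and U6 snRNAs, had 927 and 1204 CPM in WT and 1571, 1743 and 1505 in KO (change 0.61, SE 0.21, edgeR adjusted p = 0.575). In both, every KO library was above every WT library. ELAC2, which trims the 3′ end of tRNA precursors, stood at 0.62 and XPO5, the nuclear exporter of microRNA precursors, at 0.70. APEX1, an enzyme of base excision repair, stood at 0.71 and the liver glycogen phosphorylase PYGL at 1.02. STARD7, a phosphatidylcholine carrier, stood at 0.89, UQCRC1, a core subunit of respiratory complex III, at 0.73, PEBP1, an inhibitor of RAF kinase, at 0.71 and the Wnt carrier WLS at 1.0. FARSA, a subunit of the phenylalanine tRNA synthetase, had a change of 1.10 that turned on 1 library: its WT fragment level was 764 CPM in replicate 1 and 297 in replicate 2, and without replicate 2 the change was 0.24. WLS went from 1.0 to 0.36, UPF1, the helicase of nonsense-mediated decay, from 0.77 to 0.10, and SPEN from 1.10 to 0.60 without the same library. PYGL then stood at 0.57 and ELAC2 at 0.29. Of the 106 genes given by name with a change, 35 were over 1.5 times smaller or turned in sign without WT fragment replicate 2, 20 without WT fragment replicate 1 and 18 without WT input replicate 1.

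The genes of smallest p and lower efficiency in KO included cell cycle, import and mitochondrial genes. In many of them the input level was higher in KO as well. Every listed gene had at least 10 counts in both WT fragment libraries, while KO counts went down to 3. A listing by WT counts would keep genes of low RNA level only where their WT fragments were high. Of these 15 genes, 11 were in the lowest tertile of input level. The part of the listing in their separation between genotypes was not tested. MRPL13, a protein of the large mitochondrial ribosomal subunit, had fragment levels of 1255 and 742 CPM in WT and 548, 417 and 474 in KO. Its input was 167 and 221 CPM in WT and 299, 235 and 274 in KO. Neither level overlapped between genotypes, and the change was -1.40 (SE 0.40, edgeR adjusted p = 0.483). VBP1, a subunit of the prefoldin co-chaperone, had 982 and 1221 CPM of fragments in WT and 754, 565 and 643 in KO, against input of 133 and 276 CPM in WT and 333, 350 and 296 in KO. VBP1 stood at -1.44 (SE 0.42, edgeR adjusted p = 0.501), at -1.002 without WT input replicate 1 and at -2.05 without WT input replicate 2. CDK1, the kinase that drives entry into mitosis, had WT input of 131 and 219 CPM and KO input of 266, 265 and 234 CPM. Its efficiency change was -1.13 (SE 0.45), of which fragments gave -0.58 and input 0.55, and it was -0.80 without WT input replicate 1. CSE1L, the exporter that returns importin alpha to the cytoplasm, had 327 CPM of input in WT replicate 1 against 605 to 696 in the other 4 libraries; its change was -0.87, and -0.48 without that library, -0.27 without WT fragment replicate 2 and -1.36 without WT input replicate 2.

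In 9 of the 15 lower genes the input was over 0.2 log2 higher in KO, against 0 of the 15 higher genes. The efficiency change is the fragment change less the input change, so picking genes of low efficiency favours a higher KO input. The share of all 785 genes with such an input change is not given here, and the contrast is a description of the picked genes. CKS2, a partner of the cyclin-dependent kinases, stood at -1.06, HSBP1, a small binder of heat shock factor, at -1.05, TNPO1, a nuclear importer, at -0.94, the N-terminal acetyltransferase subunit NAA15 at -0.87 and BTF3, a part of the nascent polypeptide complex, at -0.76. Without WT fragment replicate 2, NAA15 stood at -0.45 and BTF3 at -0.37. DAD1 of the oligosaccharyl transferase stood at -0.79 and the chromatin protein HMGB2 at -0.60. The fragment side carried the difference in CTNNA1, the alpha catenin of cell junctions, with 927 and 990 CPM in WT and 508, 491 and 592 in KO (change -0.67, SE 0.27), in the proteasome lid subunit PSMD12 (-0.78) and in the prohibitin PHB2 (-0.50). All 30 genes of smallest p had efficiency values that did not overlap between genotypes. That is a property of how they were picked, and over all 785 genes 107 had every KO library above WT (13.6%) and 93 had every KO library below (11.8%).

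**Figure D2:**
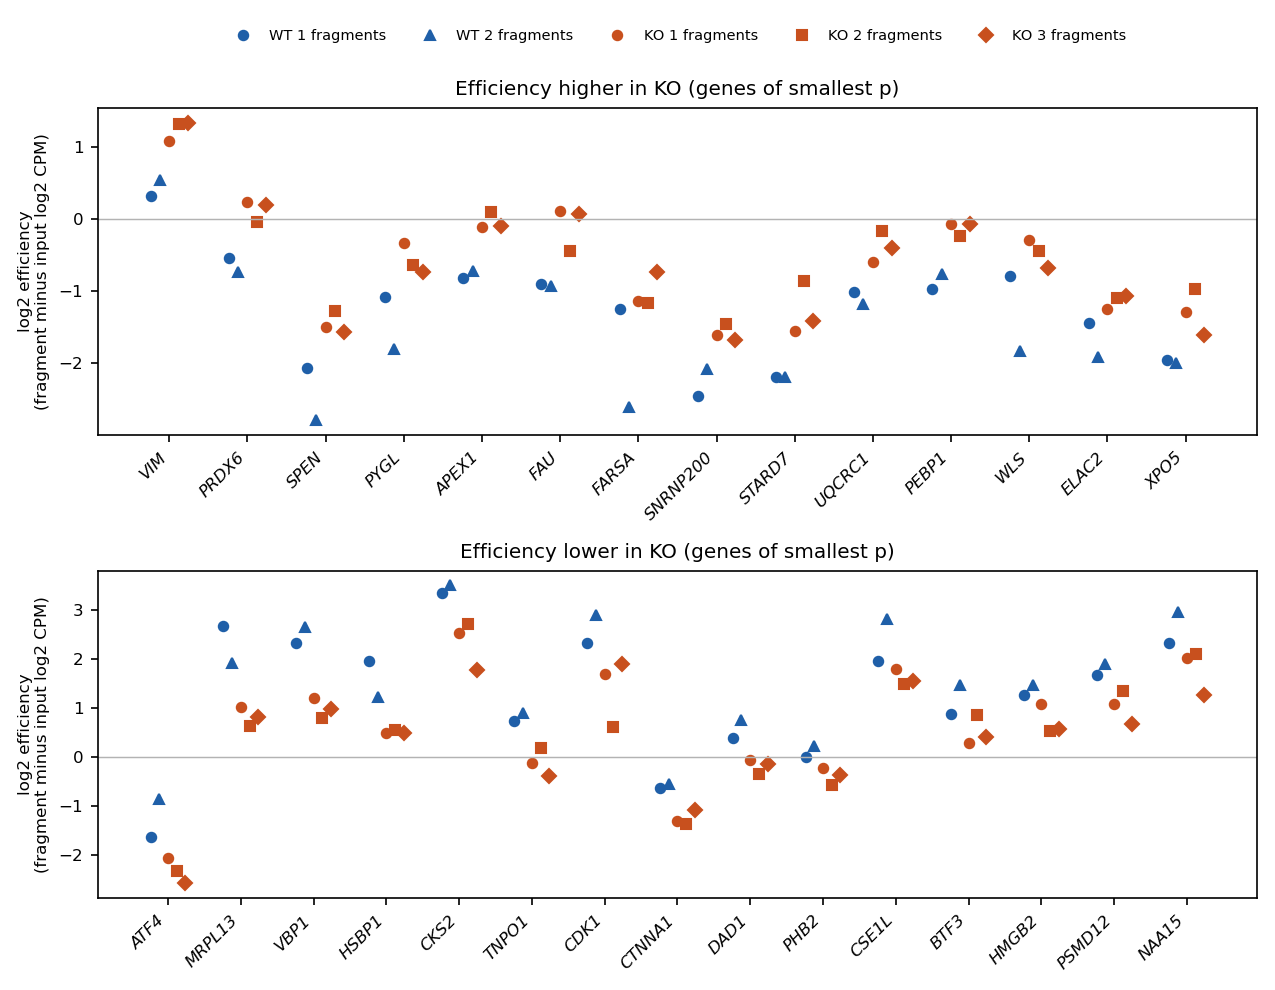
Log2 efficiency in each fragment library (fragment log2 CPM minus the mean input log2 CPM of the same genotype) for 14 of the 15 genes of smallest p and higher efficiency and all 15 with lower efficiency; blue symbols are the WT libraries, orange symbols the KO libraries. The KO symbols lie wholly above WT in the upper panel and wholly below in the lower one; the WT symbols of FARSA lie apart, at -1.25 and -2.60.

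Some large fold changes outside these genes rested on 1 library. DICER1, NACA and REXO2 were singled out as examples after their values were seen. DICER1 had fragment counts of 215 and 71 in the WT libraries against 238, 4723 and 146 in the KO libraries. It had a change of 2.43 with an SE of 2.65 that became -1.61 without KO fragment replicate 2. NACA, the alpha subunit of the nascent polypeptide complex, had 265 counts in WT replicate 1, the shallowest library, against 129 in WT replicate 2 and 272, 107 and 129 in KO. Its change was -1.92 (SE 0.95), -0.11 without WT fragment replicate 1. REXO2, an exonuclease of short RNAs, went from -2.23 to 0.62 without the same library. Groups overlapped in all 3 genes.

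The families were chosen by gene symbol, and no member of any family was called, so each is described by its members above 0 and its median beside those of all genes, 397 of 785 above 0 (50.6%) and a median of 0.01. Of 37 families, 33 had at least 3 members. Their medians ran from -0.49 to 0.36, 18 above 0 and 15 below, and 27 lay within 0.2 log2 of 0. The 339 genes in a family had 20 that belong to more than 1, and the 446 genes in none had a median of -0.02. Families were not set against genes of like RNA level, which the change followed. In the highest tertile of input level (from 1377 CPM) 188 of 262 genes were above 0, with a median of 0.17, and in the lowest 73 of 262, with -0.24. Median WT input was 1507 CPM for large-subunit ribosomal, 1935 for glycolysis, 1390 for spliceosome and 1418 for replication genes.

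Among genes of the ribosome, 18 of 22 large-subunit proteins were above 0, with a median of 0.12, and 10 of 14 small-subunit proteins, with a median of 0.06. The genes of smallest p were RPLP1, an acidic protein of the stalk that binds elongation factors (0.54, SE 0.27), RPL18 (0.32) and RPL30 (-0.30) in the large subunit. RPLP1 stood at 0.16 without WT fragment replicate 2. In the small subunit they included FAU, which makes RPS30 as a fusion with a ubiquitin-like protein, and RPS13 (-0.39). FAU had 655 and 643 CPM of fragments in WT and 1405, 957 and 1370 in KO, with a change of 0.89 (SE 0.30, edgeR adjusted p = 0.575). The KO libraries were above WT in FAU without overlap. The median efficiency of the large-subunit genes was -0.07 and -0.01 in WT and 0.14, 0.08 and -0.04 in KO, so that the genotypes overlapped. Only 9 of the 22 large-subunit genes are in the m6Am class, against 10 of the 14 small-subunit genes.

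Translation factors were divided. Of 20 genes listed by symbol as elongation factors and other terminal oligopyrimidine mRNAs, 10 were above 0 (median -0.07). Their start bases were not used to choose them, and 7 of the 20 are in the m6Am class. VIM is on this list; TPT1, the translationally controlled tumour protein, stood at 0.66 and BTF3 at -0.76. Of 7 subunits of eIF3, the scaffold that brings the small subunit to mRNA, 3 were above 0 (median -0.17), with EIF3B at 0.35, EIF3D at 0.22 and EIF3M at -0.52. Of 6 genes of eIF4F and its partners, 3 were above 0 (median 0.10). EIF4G1, the scaffold that joins the cap-binding protein to the helicase, had 1800 and 1501 CPM of fragments in WT and 1833, 2946 and 2198 in KO and a change of 0.55 (SE 0.25, edgeR adjusted p = 0.615). The lowest KO library and the highest WT library of EIF4G1 were closer to each other than the WT libraries were. The helicase EIF4A2 stood at -0.88 (SE 0.54) and EIF4G2, which supports cap-independent initiation, at 0.39. Among 5 other initiation factors only EIF5A was above 0, at 0.37, while EIF2S1, the alpha subunit of eIF2, stood at -0.59 and EIF5B, which joins the subunits, at -0.43 (median -0.29). Of 11 tRNA synthetases 5 were above 0 (median -0.02), among them GARS at 0.59, with EPRS at -0.34.

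Among mitochondrial families, the citric acid cycle had the median farthest from that of all genes. Of 12 mitochondrial ribosomal proteins 4 were above 0 (median -0.08). In complex I, which passes electrons from NADH to ubiquinone, 7 of 11 subunits were above 0 (median 0.16). NDUFA2 nonetheless stood at -1.15 (SE 0.41, edgeR adjusted p = 0.575), with 10 and 29 fragment counts in WT and 34, 6 and 17 in KO; NDUFS5 was at -0.62 and NDUFB11 at 0.46. Of 19 genes of complexes II to V, 11 were above 0 (median 0.04), with UQCRB at -0.60 and the ATP synthase subunit ATP5D at -0.66, or 0.00 without WT fragment replicate 2. Of 7 mitochondrial carriers and channels 5 were above 0 (median 0.02), including the ADP and ATP carrier SLC25A5 at 0.28. All 4 citric acid cycle genes were below 0, the highest at -0.004, with the lowest family median, -0.49. The family's median efficiencies were 0.63 and 0.42 in WT and 0.21, -0.11 and -0.14 in KO. Of the 33 families, 2 had a median above WT in every KO library and 2, this family included, had one below. The malate dehydrogenase MDH1 had 1146 and 1567 CPM of fragments in WT and 1190, 663 and 1082 in KO, with a change of -0.62 (SE 0.30, edgeR adjusted p = 0.615); DLD stood at -0.65 and PDHB at -0.35. The fragment levels of MDH1 overlapped between genotypes, and its efficiency values did not. Without WT fragment replicate 1, PDHB stood at 0.02. All 5 glycolysis genes were above 0 (median 0.18), with TPI1 at 0.49 (SE 0.26), PKM at 0.21 and GAPDH at 0.18. Their median efficiency was -0.32 and -0.06 in WT and -0.19, 0.25 and 0.21 in KO, which overlap.

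In protein folding and turnover, 5 of 19 proteasome subunits were above 0 (median -0.19). PSMD12, with 764 and 891 CPM of fragments in WT and 444, 540 and 338 in KO, and the ATPase PSMC2 (-0.68) were lower, and PSMD1, a base subunit, stood at 0.59. The family's median efficiency was 0.14 and 0.17 in WT and 0.10, 0.00 and 0.18 in KO, which overlap. Of 9 CCT and prefoldin genes, which fold actin and tubulin, 6 were above 0 (median 0.07), with CCT5 at 0.69 (SE 0.29, edgeR adjusted p = 0.615) and CCT4 at 0.25. Of 15 heat shock proteins 6 were above 0 (median -0.01), with the constitutive HSP90AB1 at 0.37, the adaptor STIP1 at 0.36 and the inducible HSP90AA1 at -0.43. Of 8 endoplasmic reticulum chaperones 3 were above 0 (median -0.07), with HSP90B1 at -0.58.

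Among RNA-binding and nuclear families, 11 of 16 core spliceosome genes were above 0 (median 0.17), with DHX15 at -0.56 and LSM7 at -0.48 against SNRNP200. Of 9 SR splicing factors 4 were above 0 (median -0.04). SRSF1 stood at 0.54 (SE 0.24, edgeR adjusted p = 0.615) and SRSF9 at 0.73, while SRSF3 stood at -0.46. Without WT fragment replicate 2, SRSF9 was at 0.21 and SRSF3 at -0.18. Of 18 hnRNP genes 10 were above 0 (median 0.04), with HNRNPAB at 0.44, HNRNPA0 at 0.52 and HNRNPM at 0.46. Replication-dependent histones, whose mRNAs end in a stem-loop in place of a poly(A) tail, were evenly split, 14 of 28 above 0 with a median of 0.00; HIST1H3F stood at -0.66, HIST1H2AB at -0.43 and HIST1H4E at 0.36. These histone genes are near-identical copies, so their counts may be shared. Poly(A) mRNA was enriched per the labels' protocols, so the RNA level of these mRNAs may be under-sampled. The family's median log2 efficiency ran from 1.05 to 1.43 over the fragment libraries, and the part of the enrichment in it was not tested. Of 9 high mobility group and histone variant genes 5 were above 0 (median 0.01), with HMGN1 at -0.63. Of 11 nucleolar genes 4 were above 0 (median -0.10), with NOP58 at -0.53, EBNA1BP2 at -0.34 and RRP1B at 0.40.

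Of 13 replication genes 9 were above 0 (median 0.16), with the helicase subunits MCM4 at 0.53 and MCM3 at 0.37 and the ribonucleotide reductase RRM1 at -0.50. Of 15 mitosis genes 5 were above 0 (median -0.24). The median efficiency of the mitosis genes was 0.17 and 0.70 in WT and 0.31, 0.57 and 0.50 in KO, which overlap. CKS2, CDK1 and HMGB2 were lower with p under 0.05 before adjustment, 3 of 15 genes beside 2.8% of all. HMGB2, a chromatin protein, also belongs to the high mobility group family. CKS2 and CDK1 had input in the lowest tertile of RNA level, where 16 of 262 genes were lower with such a p. CKS2 had 1637 and 1831 CPM of fragments in WT and 1182, 1350 and 693 in KO, on input of 144 to 173 CPM in WT and 177 to 218 in KO. Neither its fragment nor its input levels overlapped. The difference between the replication and mitosis families was not tested.

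Smaller families held few members. Of 6 ATF4 and stress response genes 4 were above 0, including ALDH18A1 of proline synthesis at 0.57 (SE 0.27) and the serine enzyme SHMT2 at 0.31, in contrast to ATF4 itself. Of 4 amino acid transporters 1 was above 0, with SLC38A2 at -0.40 and SLC7A1 at -0.26. Peroxiredoxins and thioredoxins had 4 of 7 above 0 (median 0.02), PRDX2 at 0.48 among them. The cytoskeletal genes CFL1, which severs actin filaments, and PFN1, which loads actin monomers, stood at 0.47 and 0.36 in a family with 4 of 10 above 0. Among lipid synthesis genes SCD stood at 0.30 and FASN at 0.17, and the poly(C)-binding iron chaperones PCBP1 and PCBP2 at 0.43 and 0.36. The transferrin receptor, the other of the 3 iron genes, was below 0. The iron family's median of 0.36 was thus the value of PCBP2. YWHAB of the 14-3-3 proteins stood at 0.41. Of the enzymes and readers of cap and internal methylation, 2 were counted in both tables: IGF2BP1, an m6A reader (0.16, SE 0.24), and AHCY, which removes the by-product of methylation (0.03, SE 0.27).

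**Figure D3:**
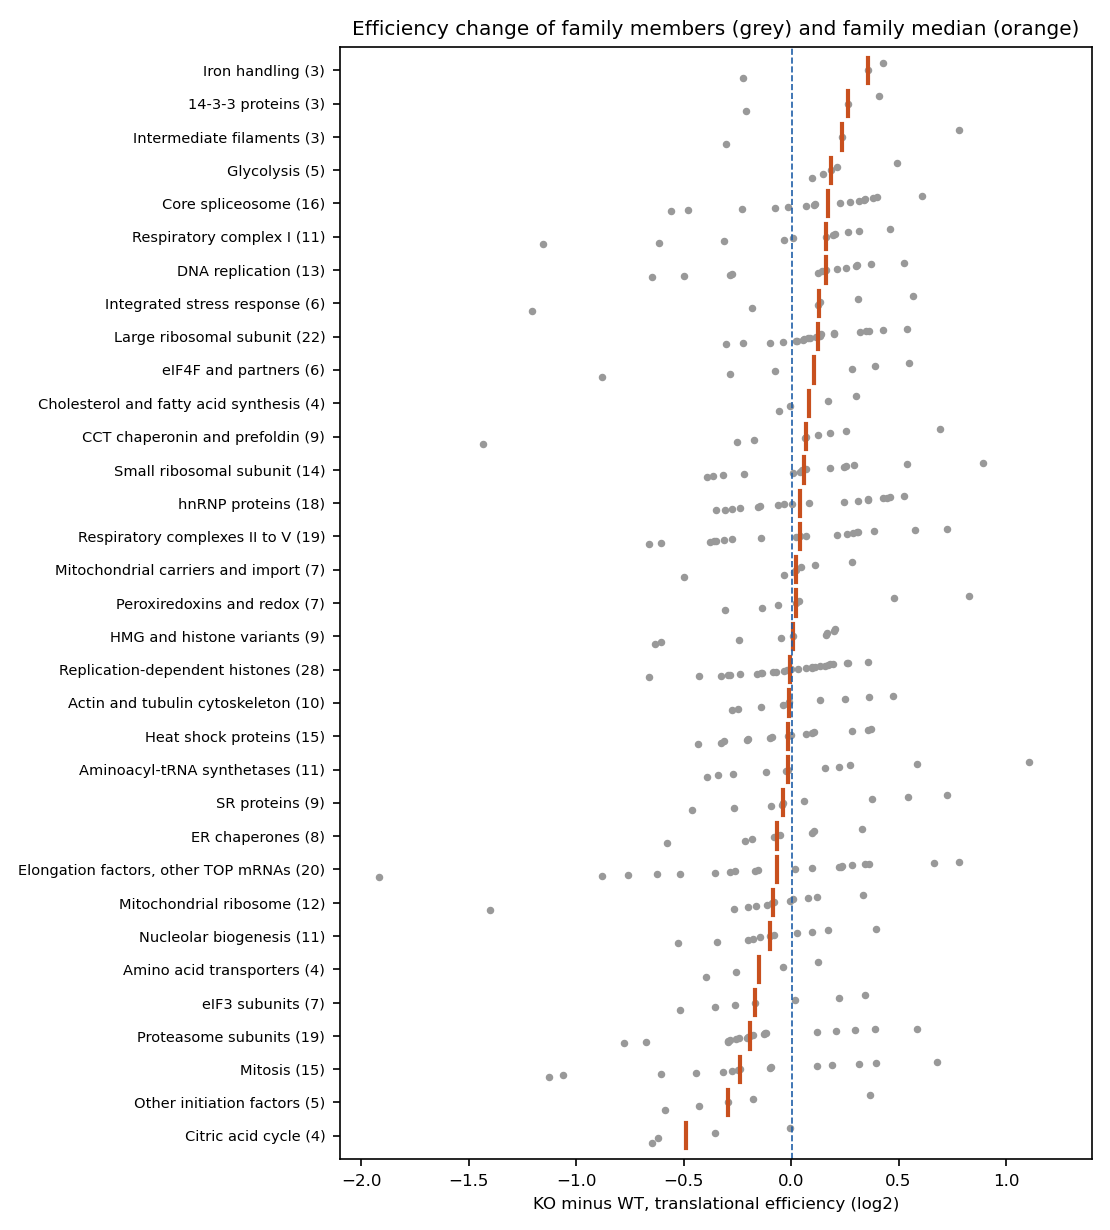
Each row is 1 of the 33 families with at least 3 measured members (number in brackets), grey points are the members' KO minus WT log2 efficiency changes, the orange bar is the family median and the dashed line the median of all 785 genes. Family medians run from -0.49 for the citric acid cycle to 0.36 for the 3 iron genes, of which 2 lie above 0 and 1 below. Members of most families lie on both sides of 0.

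By start class, m6Am genes were compared with genes of other classes because PCIF1 makes the mark. The median efficiency change was 0.05 in the m6Am class, with 233 of 416 above 0, and -0.04 in class A, -0.10 in class C, -0.09 in class G and -0.01 in class T, with 93 of 201, 22 of 52, 20 of 50 and 23 of 46 above 0. No gene of any class was called. Of m6Am genes, 21 were higher and 14 lower with p under 0.05 before adjustment (8.41%), against 6.75% of all genes, and of the 349 genes of other classes 10 were higher and 7 lower (4.87%). The m6Am median exceeded that of the other classes by 0.09. In the separate fragment libraries this difference of medians in log2 efficiency was -0.21 in WT replicate 1, 0.09 in WT replicate 2, and 0.04, 0.15 and 0.08 in the KO libraries, so the genotypes overlapped. It was 0.01 without WT fragment replicate 1 and 0.23 without WT fragment replicate 2. The difference therefore turned on which of the 2 WT libraries was used.

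Within the m6Am class, the change showed no clear relation to the authors' region score. The medians were 0.05, 0.06 and 0.05 from the lowest to the highest tertile of the score, and Spearman's rho across 416 genes was 0.04. Leading genes of the other classes were APEX1, STARD7 and MRPL13 in class A, UPF1 (0.77), IGF2R, the mannose 6-phosphate receptor (0.63), and ALDH18A1 (0.57) in class C, MIDN (-0.83), BCCIP (-0.81) and the RNA editor ADAR (0.53) in class G, and SPEN, XPO5 and WDR6 (0.67) in class T. Without WT fragment replicate 2, IGF2R stood at 0.20, WDR6 at 0.27 and UPF1 at 0.10. When the letters of minus-strand genes with 161-base windows were turned to the base of the transcript, and the 82 minus-strand A genes with 160-base windows were left as A, class A held 233 genes with a median of -0.03, C 34 with -0.06, G 68 with -0.12 and T 14 with -0.01. Of the 46 genes in class T, 39 are on the minus strand and left the class, and 7 minus-strand A genes entered it.

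**Figure D4:**
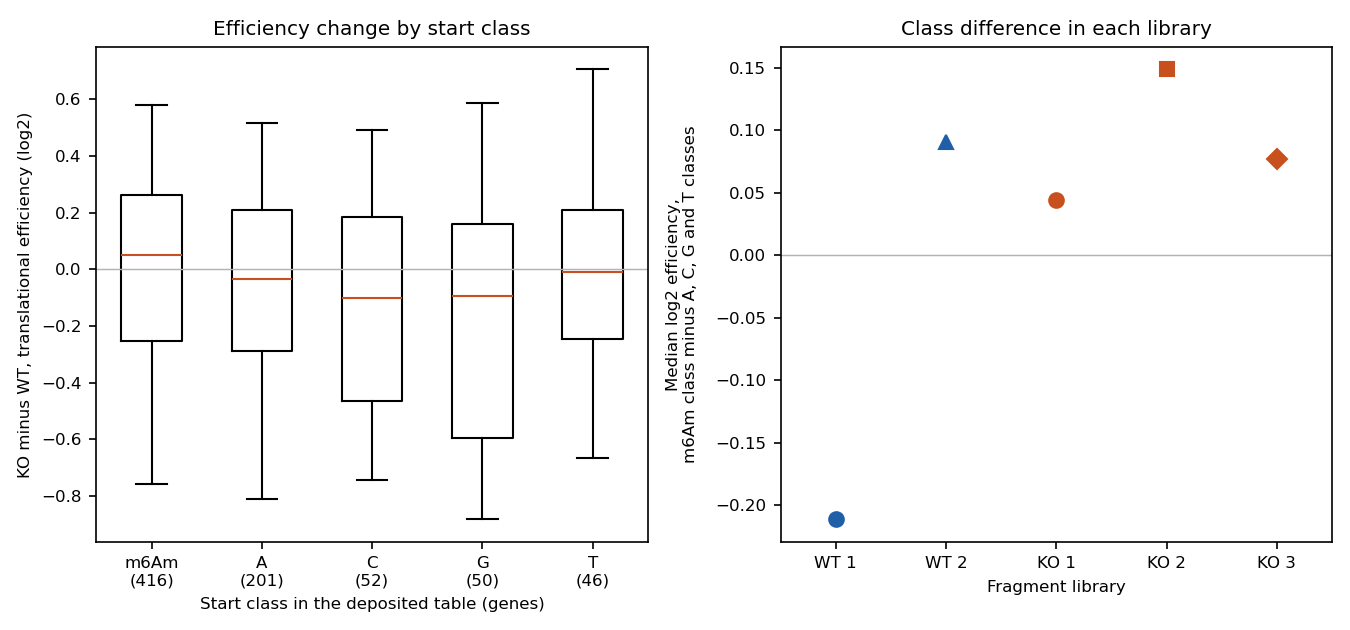
Left, KO minus WT log2 efficiency change by start class, with the median in orange, boxes from the first to the last quartile and whiskers to the 5th and 95th percentiles; right, the m6Am median minus the median of the other classes in each fragment library (blue WT, orange KO). The class medians span -0.10 to 0.05, and WT replicates 1 and 2 differ from each other (-0.21 and 0.09) more than the KO libraries do.

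The efficiency change followed the RNA level. Over the 785 genes its Spearman correlation with the WT input level was 0.454, a description across genes that share their libraries and the WT input itself. In the lowest tertile of input level 73 of 262 genes were above 0 with a median of -0.24, in the middle tertile 136 of 261 with 0.01, and in the highest tertile 188 of 262 with 0.17. Among the 15 genes of smallest p and lower efficiency 11 were in the lowest tertile, and among the 15 with higher efficiency 0 were, with 10 in the highest. Median log2 efficiency in the lowest tertile was 1.23 and 1.17 in the WT libraries and 0.93, 0.94 and 0.82 in KO. In the highest tertile it was -1.03 and -0.78 in WT and -0.76, -0.70 and -0.68 in KO, and the groups overlapped in neither tertile. The correlation was 0.239 without WT fragment replicate 1 and 0.383 over the 155 genes with a mean of at least 100 fragment counts. Within tertiles the m6Am and the other classes had medians of -0.25 and -0.24, 0.04 and -0.04, and 0.18 and 0.13. All listed genes had at least 10 counts in both WT fragment libraries, while KO libraries held lower counts for some. How the authors listed the genes is not given in the sources used here. A listing by WT counts would keep genes of low RNA level only where their WT fragments were high. The part of the listing in this relation, and in the separation of the groups within tertiles, was not tested.

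**Figure D5:**
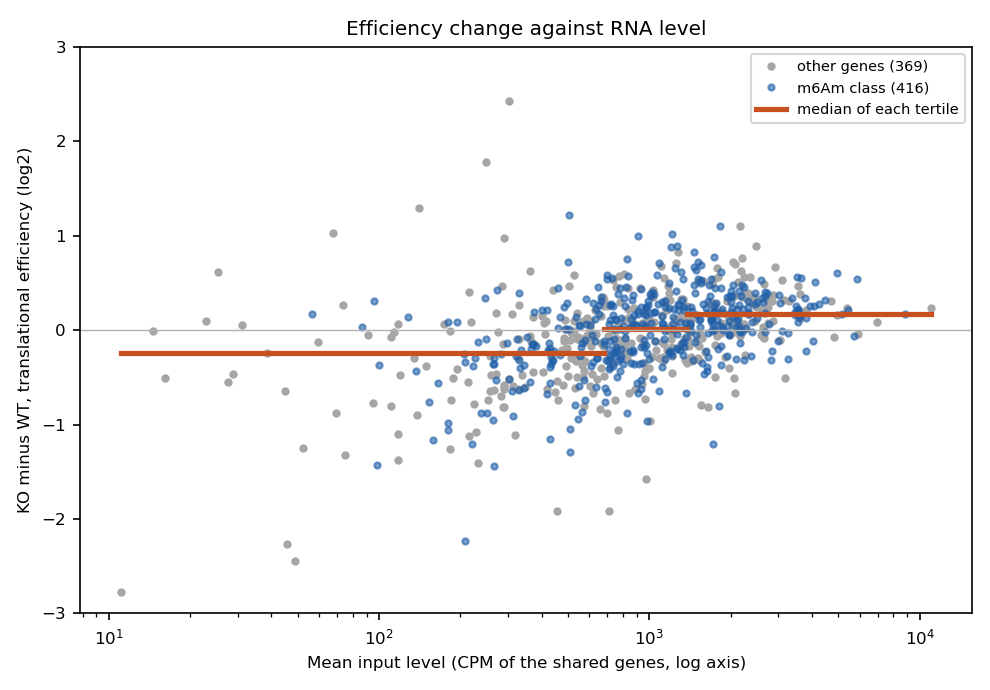
Each point is a gene, with its mean input level on a log axis and its KO minus WT log2 efficiency change; m6Am genes are blue, the others grey, and orange bars mark the median of each tertile of input level. The medians run from -0.24 in the lowest tertile to 0.17 in the highest.

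Other readouts of the same genes showed weaker relations. The number of WT m6A sites, the internal mark, had a Spearman's rho of 0.12 with the efficiency change over 762 genes, with medians of -0.05 for 97 genes without a site, -0.01 for 281 with 1 to 3 sites and 0.05 for 384 with more. These are descriptions across genes that share their libraries. A KO over WT ratio from SLAM-seq, whose measured quantity the authors' deposited table does not state, was given for 24 of the genes, with a rho of -0.21. Across the 765 genes of the authors' deposited efficiency table, the log2 changes correlated at 0.994 with those of edgeR, 738 with the same sign, and at 1.0 with those of DESeq2 on the same counts.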

How the data were processed

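Input RNA and ribosome-protected fragments of WT and PCIF1 KO HEK293T cells were analysed in the 10 libraries of those kinds. Per the labels' protocols, poly(A) mRNA was enriched, and a directional kit (input) or the cloning steps of miCLIP (fragments) gave the libraries. Per the submitters' processing notes, the tools were STAR, BWA 0.7.17, deepTools and bedtools and the builds mm10, hg38 and GRCh38, with no roles; which tool counted reads is not given in the sources used here. Raw read counts per gene were deposited by the authors, with 0 columns left unmapped. The authors' efficiency table gives log2 fold changes, p-values, a test score and a mean normalized signal under DESeq2's column names, per the file headers. The deposited SLAM-seq ratio, the region score and the m6A site lists (whole-number counts of reads with a substitution per site) were used only to describe genes.

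The interaction was fitted to the counts in edgeR 4.0.16 under R 4.3.3 (TMM factors over the shared genes, robust quasi-likelihood F test, two-sided, Benjamini-Hochberg over 785 genes, threshold 0.05). DESeq2 1.42.0, limma 3.58.1 voom, other scalings, count minimums, blocks and left-out libraries were alternatives. Log2 CPM used a prior count of 2. Named genes were the 15 of smallest p in each direction with a mean of at least 30 fragment counts, the 3 of smallest p in each family of at least 3 members and each class, and listed genes, 151 in all. The text gives 106 genes with a change, a few of them outside this rule, and the rest of the 151 are not reported here. The script was tested on simulated data with 1 common dispersion for each kind of library. Of 100 genes with a true 2-fold change 35 were called, and of 100 with a 4-fold change 93. Among 585 unchanged genes, 9 were called. Members, lists and families were chosen with earlier results of these data known; the family patterns were trimmed once after the symbols were seen, and the split by tertiles of RNA level, the summary over families, the distances of 50 and 200 bases and the turning of minus-strand letters were chosen after seeing the data. Symbols came from the deposited table, of which 762 matched RefSeq by accession, 55 with another symbol there. Tables and plots were made with matplotlib 3.10.9, scipy 1.17.1, numpy 2.4.6 and pandas 2.3.3 under Python 3.11.15. Replicates differed by more than sampling noise, and none was counted as a duplicate.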

Additional observations from a re-analysis of the deposited data

How the results depend on the processing

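The count of efficiency calls was 0 with edgeR and 2 with DESeq2. Leaving out 1 library at a time gave 0 to 9 calls, the 9 (1 higher and 8 lower, NACA and REXO2 among them) without WT fragment replicate 2. Leaving out a WT library leaves 1 in its group, which is then assumed to vary like the others. Fragment calls ran from 0 to 3 and input calls from 0 to 181 over left-out libraries, the 181 (60 higher, 121 lower) without WT input replicate 2. Input calls were 5 over the 14629 genes passing edgeR's filter and 152 over the 30638 with any count. With replicate number as a replicate block, fragment calls were 6 and input calls 5, and efficiency calls stayed at 0, as with input and fragment library as a pair. The numbers were not taken to pair the samples, since not every pair's deviations correlated over 0.1. Same-numbered input and fragment libraries gave -0.065 for both WT pairs and 0.058, 0.102 and 0.237 for the KO pairs. With 2 WT libraries of each kind, the 2 WT values are equal by construction and count as 1. Same-numbered WT and KO libraries gave 0.409 and -0.020 (input) and 0.196 and 0.207 (fragments). The class difference (0.09) ran from 0.0135 to 0.2324 over left-out libraries and from 0.07 to 0.10 over other settings. Families with a median above 0 were 18 of 33, and 8 of 14 with a mean count of at least 100; without TMM factors they were 12, where the median of all genes was lower by 0.07. Of the 151 genes named by the rule, 112 kept their sign in all settings that tested them. Among genes in the text 9 had a sign that turned when 1 library was left out. The range over left-out libraries was -0.9135 to 0.4953 for EIF3M, -0.732 to 0.1291 for HSP90AA1 and -0.9355 to 0.4228 for DHX15, each highest without WT fragment replicate 2. It was -0.8398 to 0.0214 for PDHB and -3.381 to 0.6242 for REXO2, highest without WT fragment replicate 1, -0.0116 to 0.3602 for GAPDH and -1.606 to 4.831 for DICER1, lowest without KO fragment replicate 2, -0.0245 to 0.3242 for IGF2BP1 and -0.1587 to 0.202 for AHCY. AHCY also stood at -0.0231 without TMM factors and -0.0065 with whole-table input sizes. The cause was not tested. Depth limits the fragment side: 3 counts were worth 170 CPM in WT replicate 1 and 24.1 to 64.9 CPM in the other fragment libraries.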
